A study of Rattus norvegicus with 8 samples.

Results

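The inflammatory mediators and NF-kB targets Ptgs2, Icam1, Timp1, Nfkbia, Cebpd, Sod2 and C3 were followed in rat brain after a sham operation or an experimental stroke, with or without pretreatment with candesartan, a blocker of the angiotensin AT1 receptor. Every probe set whose annotation gave one of these 7 symbols and no other was taken, which made 9 of the 15923 probe sets of the array: 3 for Cebpd and 1 for each of the other genes. The samples were male Wistar rats aged 7 weeks and weighing 160 to 200 g, and nothing in the labels named a transgene or mutation. The sham vehicle group received saline under the skin 2 times a day for 5 days and then a sham operation. The stroke vehicle group received the same saline and then occlusion of the right middle cerebral artery for 90 min followed by reperfusion. The sham candesartan and stroke candesartan groups had the same operations after candesartan at 0.1 mg/kg per injection. For stroke candesartan 2 the protocol text leaves out the pretreatment, and the group was taken from the source label. RNA came from a piece of the right hemisphere taken 2 h after the operation and was hybridised to Affymetrix RAE 230A arrays. Each array held RNA pooled from 2 rats, and each of the 4 groups had 2 independent pools, so that a group of 2 arrays stood for 4 animals whose single values were not measured.

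NF-kB is a family of transcription factors held in the cytoplasm by inhibitor proteins, of which Nfkbia encodes IkB-alpha. Cytokine and danger signals lead to the breakdown of the inhibitor, and NF-kB then enters the nucleus and switches on genes for enzymes, adhesion molecules and its own inhibitor. C/EBP-delta, encoded by Cebpd, is a transcription factor of the acute phase response that acts at many of the same genes. In ischaemic brain these pathways are known for prostaglandin production, for the attachment of white blood cells to vessel walls and for later tissue damage and repair.

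The upstream sequences of 3 members are shown because they carry the binding motifs discussed with the results: Ptgs2 was the only member that passed the test, Nfkbia alone had a match to the NF-kB consensus, and C3 had the most matches to a C/EBP site. They are the 250 bases before the annotated start of each gene in RefSeq (build GRCr8), written 5′ to 3′ on the strand of the gene, with motif matches in capitals. Ptgs2 lies at chr13:64713813-64714062 on the plus strand, Nfkbia at chr6:78597073-78597322 on the minus strand and C3 at chr9:2201340-2201589 on the minus strand.
Ptgs2: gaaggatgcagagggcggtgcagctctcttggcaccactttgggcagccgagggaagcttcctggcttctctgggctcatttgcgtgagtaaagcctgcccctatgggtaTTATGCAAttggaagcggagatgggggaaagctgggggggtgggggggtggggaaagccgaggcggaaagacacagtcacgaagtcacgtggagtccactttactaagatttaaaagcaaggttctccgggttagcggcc
Nfkbia: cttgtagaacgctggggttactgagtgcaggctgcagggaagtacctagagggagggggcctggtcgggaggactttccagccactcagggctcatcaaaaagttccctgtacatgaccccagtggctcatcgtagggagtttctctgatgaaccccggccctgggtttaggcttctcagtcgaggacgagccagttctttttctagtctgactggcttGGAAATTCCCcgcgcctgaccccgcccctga
C3: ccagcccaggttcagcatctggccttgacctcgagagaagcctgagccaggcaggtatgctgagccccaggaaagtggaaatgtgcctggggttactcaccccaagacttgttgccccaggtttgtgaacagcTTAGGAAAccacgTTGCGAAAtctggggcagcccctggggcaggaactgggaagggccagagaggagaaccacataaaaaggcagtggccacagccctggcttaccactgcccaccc

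RefSeq promoters were matched for 6 of the 7 members, all but Cebpd. Both strands were searched for the NF-kB consensus, the cAMP response element TGACGTCA and its shorter core TGACG, the AP-1 site TGANTCA and the C/EBP site TTNNGNAA, where N is any base. The core lies within the full cAMP response element. The NF-kB consensus was found in 1 of the 6 promoters, that of Nfkbia, where GGAAATTCCC begins 31 bases before the start and reads as the consensus on the opposite strand. Of 33469 promoters of the same length 6.33% held this consensus. The C/EBP site was found in 3 of 6, against 37.2% of all promoters: TTATGCAA in Ptgs2, 1 match in Icam1, and TTAGGAAA and TTGCGAAA in C3. The core TGACG was found in Timp1, against 18.2% of all promoters, and the full element and the AP-1 site in 0 of 6, against 1.59% and 6.34%. A match is a run of letters and not a measured binding site, and the lack of one says only that these letters are not in this window.

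Values are signals on the linear scale of the array, with no unit. Group means are given ± SD with n = 2 pools. Differences were tested with limma on log2(signal + 372.4), where the offset is the 20th percentile of all signals, so that differences of dim genes are understated. P-values were adjusted over the 10293 probe sets that had a signal above 918.8, the 40th percentile, on 2 or more arrays. Adjusted values under 0.05 count as called. Of the 9 member probe sets 7 passed this filter, 2 of them, Ptgs2 and Cebpd probe set 2, through arrays of stroke groups alone. Icam1 and Cebpd probe set 3 did not pass, and their values come from a fit of all 15866 probe sets. Icam1 stood at the edge, since its signal of 918.8 on stroke vehicle 1 equalled the threshold.

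The arrays had nearly equal trimmed means, and median signals between 1258.7 and 1381.4. Stroke candesartan 2 stood apart, with a mean correlation with the other arrays of 0.960 against at least 0.976 elsewhere. Several differences of members and list genes that include it are therefore also given without it. The tissue label was borne out by its markers: all 11 neuron and all 12 astrocyte markers on the array passed the filter, Snap25 having a mean signal of 73197.9 and Gfap of 20098.3. Of 8 markers of blood leukocytes on the array 0 passed the filter, and their summed signal was 1226 to 1776 in sham vehicle, 1716 to 2248 in stroke vehicle, 1671 to 1927 in sham candesartan and 1834 to 2714 in stroke candesartan. In whole tissue, fewer cells of a type and less RNA per cell cannot be told apart.

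**Figure D1:**
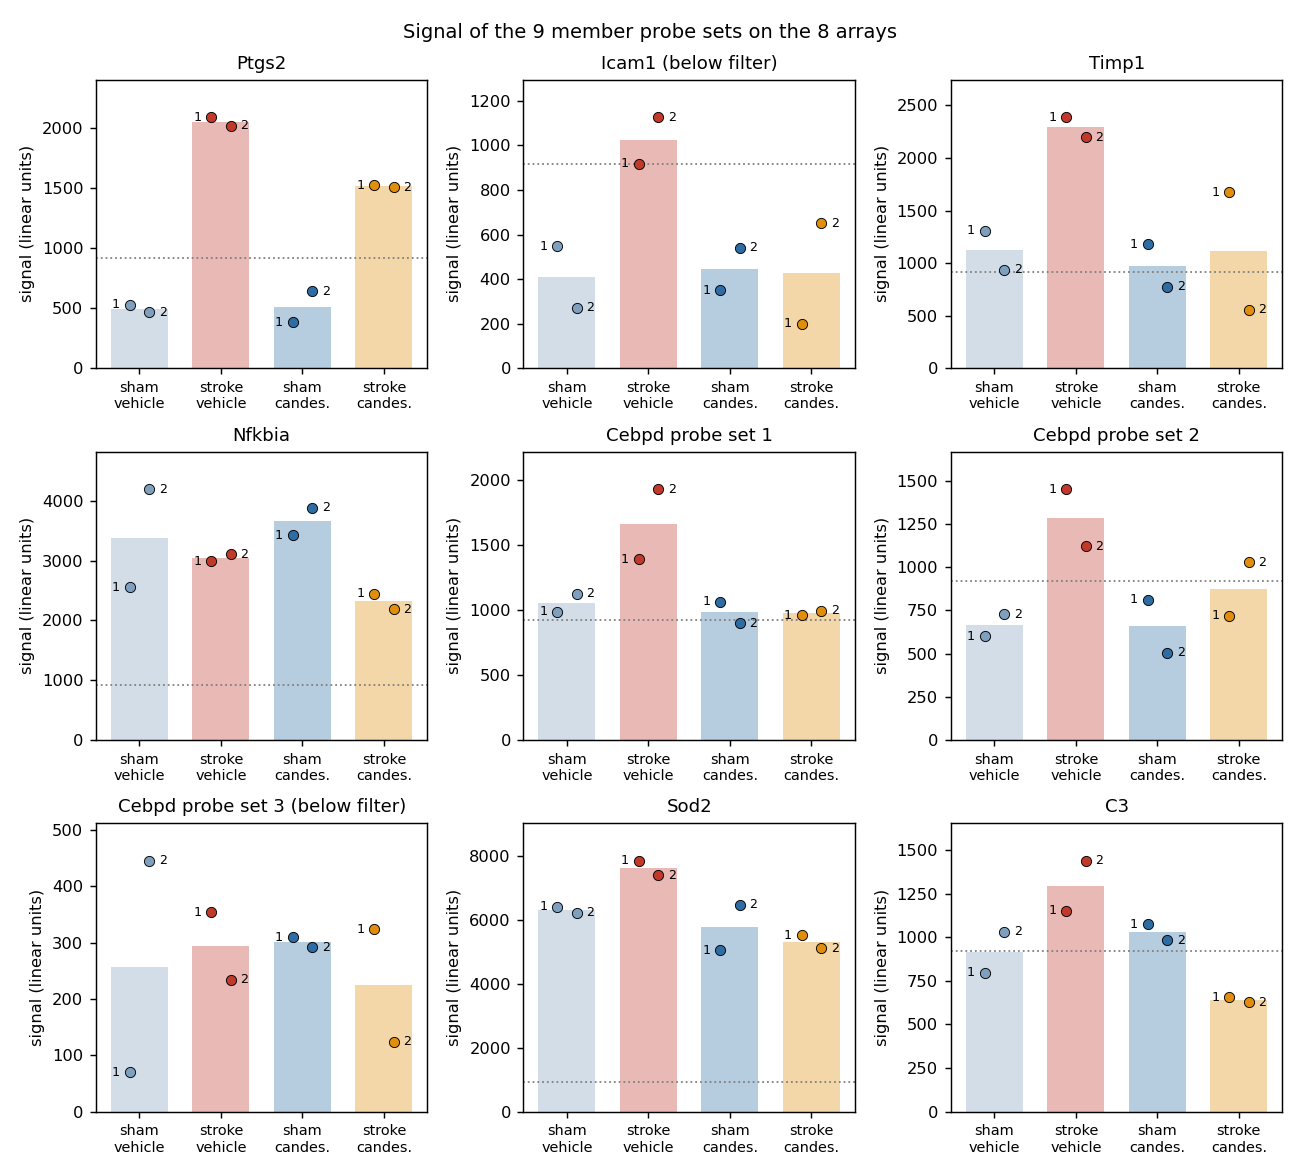
Signal (linear scale, from 0) of the 9 member probe sets on the 8 arrays; bars are group means, points are the pools numbered 1 and 2, and the dotted line is the filter threshold of 918.8. For Ptgs2 all 4 stroke arrays lie above all 4 sham arrays, and for 8 of the 9 probe sets, Cebpd probe set 3 excepted, both stroke candesartan pools lie below both stroke vehicle pools.

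Ptgs2, the inducible cyclooxygenase that makes the precursor of prostaglandins, rose after stroke with either pretreatment. Its signal was 526.4 and 466.9 on the sham vehicle arrays, 2090.6 and 2020.6 after stroke with vehicle, 384.4 and 638.9 after sham with candesartan, and 1526.2 and 1507.6 after stroke with candesartan. All 4 stroke arrays lay above all 4 sham arrays, which held for 2.29% of all probe sets. The groups ranked, from the highest, stroke vehicle (2055.6 ± 49.5), stroke candesartan (1516.9 ± 13.2), sham candesartan (511.6 ± 180) and sham vehicle (496.6 ± 42.1). The 2 sham groups overlapped, and the 2 stroke groups did not.

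The rise of Ptgs2 over both pretreatments was 1.30 ± 0.13 (log2, SE; adjusted p = 0.000841 by limma), which placed it 15th by p among the tested probe sets. In this comparison 0.418% of tested probe sets were called, Ptgs2 alone among the 9 member probe sets. An unadjusted p under 0.05 was found for 9.54% of tested probe sets and for 3 of the 7 tested members, Ptgs2, Nfkbia and Cebpd probe set 2. The call held without any single array, at 1.19 to 1.40 and adjusted p between 0.00182 and 0.0158. With vehicle alone the rise was 1.48 ± 0.19 (adjusted p = 0.00779), a mean signal 4.14 times that of sham, in a comparison in which 0.262% of probe sets were called and 7.06% had an unadjusted p under 0.05. With candesartan alone it was 1.11 ± 0.19 (adjusted p = 0.0474), a mean signal 2.97 times that of sham, where 0.243% were called and 12.4% had an unadjusted p under 0.05. The vehicle call was lost without any single array of the 2 groups compared (1.43 to 1.53, adjusted p between 0.0794 and 0.174). The candesartan call was lost without any single array other than stroke candesartan 1, at 0.90 to 1.32 and adjusted p between 0.091 and 0.333, also without the signal filter (adjusted p = 0.133), with a lower offset (adjusted p = 0.0705) and in a fit of the sham and stroke candesartan groups alone (adjusted p = 0.321).

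After stroke the Ptgs2 signal with candesartan was 0.738 times that with vehicle. The difference was -0.36 (95% interval -0.78 to 0.05; adjusted p = 0.432 by limma) and did not pass, and it was -0.35 without stroke candesartan 2. The difference between its 2 stroke responses, candesartan minus vehicle, was -0.37 (95% interval -0.96 to 0.21; adjusted p = 0.684), so the test showed neither a smaller response nor an equal one. In sham rats the difference between candesartan and vehicle was 0.01 (95% interval -0.40 to 0.42). Over the 8 arrays the named genes whose log2 values followed Ptgs2 most closely were Fos, an immediate early transcription factor (Pearson r = 0.981), Ifrd1 (0.975) and Cxcl1, a chemokine for neutrophils (0.970). These correlations describe 8 arrays that share the step between sham and stroke.

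Icam1 encodes an adhesion molecule of the vessel wall that white blood cells grip. Its signals were 547.0 and 270.4 in sham vehicle, 918.8 and 1126.3 in stroke vehicle, 348.9 and 540.4 in sham candesartan, and 199.5 and 651.8 in stroke candesartan. Both stroke vehicle pools lay above the other 6 arrays, whereas the pools of the other 3 groups overlapped one another. The share of all probe sets with 1 group wholly above or below the other 3 was not counted. How unusual this pattern is, here or for the genes below, therefore cannot be said. The difference between stroke and sham was 0.86 ± 0.30 with vehicle (adjusted p = 0.7 by limma over all probe sets) and -0.08 ± 0.30 with candesartan (adjusted p = 0.942), and candesartan minus vehicle after stroke was -0.86 (95% interval -1.56 to -0.17; adjusted p = 0.382). In that fit 0.0756%, 0.101% and 0% of all probe sets were called in the 3 comparisons. The last difference was -0.44 without stroke candesartan 1 and -1.28 without stroke candesartan 2. That between stroke and sham with candesartan was 0.34 and -0.50 without the same arrays. When the percentiles were taken with the array's control probe sets counted, Icam1 passed the filter, and the 3 differences were 0.86, -0.08 and -0.86 (adjusted p = 0.565, 0.938 and 0.3). The summed signal of 12 endothelial markers was 31998 and 35166 in the stroke vehicle pools and 34914 and 37014 in the stroke candesartan pools. Of the 11 endothelial genes that passed the filter 5 were above 0 for candesartan minus vehicle after stroke, with a median of -0.065. Tfrc read 7420.5 and 7654.5 in stroke vehicle and 8990.1 and 9219.8 in stroke candesartan, whereas Flt1 read 1010.8 and 1188.8 against 587.9 and 893.8. The part of vessel content in the Icam1 values was not tested.

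Timp1 encodes a secreted inhibitor of matrix metalloproteinases. Its signals were 1306.0 and 936.3 in sham vehicle, 2386.5 and 2198.6 in stroke vehicle, 1179.8 and 772.8 in sham candesartan, and 1671.7 and 553.4 in stroke candesartan. The stroke vehicle pools were the highest of the 8 arrays, and the 2 stroke candesartan pools stood far apart, 1 above and 1 below all sham arrays. The difference between stroke and sham was 0.85 ± 0.31 with vehicle (adjusted p = 0.562 by limma) and 0.05 ± 0.31 with candesartan (adjusted p = 0.969). When only the 2 vehicle groups were fitted, the first of these passed (adjusted p = 0.0344). That with candesartan was -0.53 without stroke candesartan 1 and 0.62 without stroke candesartan 2. Candesartan minus vehicle after stroke was -0.95 (95% interval -1.65 to -0.26; adjusted p = 0.275). Without stroke candesartan 1 it was -1.52, a value that rests on stroke candesartan 2 alone, the array that stood apart from the others. Without stroke candesartan 2 it was -0.38. The difference between the stroke responses was -0.80 (95% interval -1.78 to 0.18; adjusted p = 0.602 by limma), and -1.37 without stroke candesartan 1. The size of both differences thus rested on which pool was kept.

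Nfkbia, whose product holds NF-kB in the cytoplasm and whose gene NF-kB itself switches on, did not follow Ptgs2. Its signals were 2555.0 and 4199.2 in sham vehicle, 2990.9 and 3108.4 in stroke vehicle, 3426.3 and 3891.2 in sham candesartan, and 2449.0 and 2188.5 in stroke candesartan. The 2 stroke candesartan pools were the lowest of the 8 arrays, and the 2 sham vehicle pools differed more than any pair of groups. The difference between stroke and sham was -0.10 ± 0.19 with vehicle (adjusted p = 0.962 by limma) and -0.58 ± 0.19 with candesartan (adjusted p = 0.287), and candesartan minus vehicle after stroke was -0.35 (95% interval -0.76 to 0.07; adjusted p = 0.447). Without stroke candesartan 2 the last 2 differences were -0.51 and -0.28. The value with vehicle was -0.42 without sham vehicle 1 and 0.23 without sham vehicle 2, so its sign rested on 1 pool.

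Cebpd was read by 3 probe sets, which did not give the same picture. Probe set 1 gave 986.8 and 1122.3 in sham vehicle, 1388.2 and 1927.1 in stroke vehicle, 1062.3 and 897.3 in sham candesartan, and 956.3 and 991.3 in stroke candesartan. Probe set 2 gave 601.0 and 728.4, 1452.7 and 1123.3, 810.8 and 503.9, and 717.9 and 1030.3 in the same order of groups. In both, the stroke vehicle pools were the 2 highest of the 8 arrays. Probe set 3 was dim, between 70.0 and 444.9, and its groups overlapped in every comparison.

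For Cebpd the difference between stroke and sham with vehicle was 0.50 ± 0.18 in probe set 1 (adjusted p = 0.557 by limma), 0.67 ± 0.23 in probe set 2 (adjusted p = 0.496) and 0.14 ± 0.29 in probe set 3. With candesartan the 3 probe sets gave -0.0038, 0.28 and -0.19. Candesartan minus vehicle after stroke was -0.58 (95% interval -0.98 to -0.18; adjusted p = 0.264) in probe set 1 and -0.42 (95% interval -0.92 to 0.08; adjusted p = 0.451) in probe set 2. None of these passed. Without single arrays the last difference lay between -0.77 and -0.39 in probe set 1, the ends being without stroke vehicle 1 and 2, and between -0.60 and -0.24 in probe set 2, the ends being without stroke candesartan 2 and 1.

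Sod2 encodes the manganese superoxide dismutase of mitochondria, an antioxidant enzyme and a known NF-kB target. It was the brightest member, at the 88.6th percentile of all probe sets. Its signals were 6417.7 and 6232.7 in sham vehicle, 7860.4 and 7414.1 in stroke vehicle, 5054.5 and 6495.2 in sham candesartan, and 5528.9 and 5118.8 in stroke candesartan. The stroke vehicle pools were the 2 highest arrays. The difference between stroke and sham was 0.26 ± 0.13 with vehicle (adjusted p = 0.74 by limma) and -0.10 ± 0.13 with candesartan (adjusted p = 0.792). Candesartan minus vehicle after stroke was -0.49 (95% interval -0.79 to -0.20; adjusted p = 0.249), -0.54 without stroke candesartan 1 (adjusted p = 0.0521) and -0.44 without stroke candesartan 2.

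C3, the central protein of the complement cascade, was the only member whose stroke pools lay wholly above sham with vehicle and wholly below sham with candesartan. Its signals were 796.8 and 1031.3 in sham vehicle, 1150.8 and 1437.2 in stroke vehicle, 1075.3 and 982.3 in sham candesartan, and 655.9 and 626.9 in stroke candesartan. Both stroke vehicle pools were the highest of the 8 arrays and both stroke candesartan pools the lowest. The difference between stroke and sham also changed sign between pretreatments for Icam1, Sod2 and Cebpd probe sets 1 and 3. With candesartan their stroke and sham pools overlapped. The difference between stroke and sham for C3 was 0.37 (95% interval -0.04 to 0.78; adjusted p = 0.732 by limma) with vehicle and -0.47 (95% interval -0.88 to -0.06; adjusted p = 0.357) with candesartan, the latter -0.45 without stroke candesartan 2.

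Candesartan minus vehicle after stroke was -0.71 for C3 (95% interval -1.12 to -0.30; adjusted p = 0.239 by limma), and it was -0.73 and -0.69 without stroke candesartan 1 and 2. Without stroke vehicle 1 and 2 it was -0.84 and -0.59. The difference between the stroke responses was -0.84 ± 0.26 (adjusted p = 0.469) and lay between -0.97 and -0.71 without any single array. Neither passed the threshold. Microglia and macrophages, which make complement, were followed through 15 markers: their summed signal was 31859 and 31998 in the stroke vehicle pools and 32104 and 32552 in the stroke candesartan pools, against 33713 to 39616 in the 4 sham pools. Of the 12 microglia genes that passed the filter 6 were above 0 for candesartan minus vehicle after stroke, with a median of -0.02. The brightest, Ctss, read 9892.5 and 9104.3 in stroke vehicle and 10937.2 and 11816.7 in stroke candesartan, whereas Cx3cr1 read 1453.7 and 1739.7 against 1140.8 and 923.3 and Aif1 1136.3 and 1104.8 against 825.8 and 507.9. Markers of the choroid plexus, of which 9 were on the array, summed to 79744 and 84038 in stroke vehicle and 68781 and 79948 in stroke candesartan, and the part of these cell types in the C3 values was not tested.

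**Figure D2:**
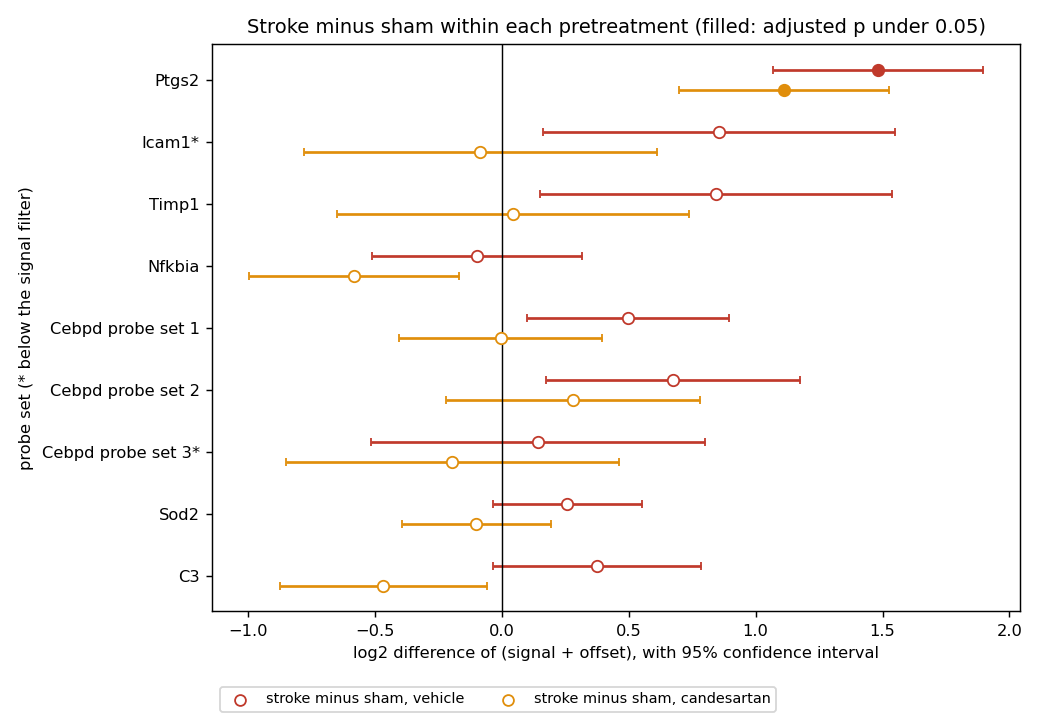
Difference between stroke and sham (log2 of signal + 372.4, x axis) for the 9 probe sets with vehicle (red) and with candesartan (orange), with 95% confidence intervals; filled points passed an adjusted p of 0.05 and stars mark probe sets below the filter. The 2 Ptgs2 points are the filled ones, at 1.48 and 1.11, and the vehicle point lies to the right of the candesartan point for all 9 probe sets.

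Counted over all 9 member probe sets, the difference between stroke and sham was above 0 for 8 with vehicle, with a median of 0.50, against 53.9% of all 15866 probe sets and a median of 0.02. Both stroke pools lay above both sham pools for 7 of the 9, against 23.8% of all probe sets. Nfkbia and Cebpd probe set 3 were the exceptions. In the same comparison 0 of 12 astrocyte markers were above 0, with a median of -0.18, and their summed signal was 197466 to 209825 in stroke vehicle against 234396 to 238680 in sham vehicle. Their part in the member values was not tested. With candesartan the difference was above 0 for 3 of the 9, with a median of -0.08 against -0.04 for all probe sets. There both stroke pools lay above both sham pools for Ptgs2 alone, against 15.1% of all probe sets, and below them for Nfkbia and C3, against 22.0%.

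The title of the series names inflammation under candesartan, and the comparison of candesartan with vehicle after stroke put all 9 member probe sets below 0, with a median of -0.49 against 55.0% of all probe sets below 0 and a median of -0.03. Both stroke candesartan pools lay below both stroke vehicle pools for 8 of the 9, against 22.9% of all probe sets. By limma 0 of the 7 tested members were called, in a comparison in which 0.068% of probe sets were called, and 4 of the 7 had an unadjusted p under 0.05, against 13.1% of all tested probe sets. The members were chosen with earlier results of these data in view, so these counts describe them and are no test of the group. Of 11 neuron markers 7 were above 0 in this comparison, with a median of 0.14. Their summed signal was 253546 to 275798 in stroke candesartan against 208097 to 220858 in stroke vehicle, and Snap25 (86193.7 and 113989.2 against 64106.7 and 62983.0) and Camk2a (15879.2 and 10931.9 against 4401.6 and 2412.0) made most of that gap, while Eno2 and Gad1 had lower means in stroke candesartan. The summed signal of 4 erythrocyte markers was 80927 to 83420 in stroke candesartan against 90666 to 97491 in stroke vehicle. Hbb made most of that sum (75962.8 and 80107.2 against 84226.7 and 90920.2). Of the 3 erythrocyte markers that passed the filter 1 was above 0, Slc4a1 (1330.2 and 1421.7 against 1124.3 and 1235.3). The part of either cell type in the member values was not tested. The stroke vehicle pools also enter the comparison of stroke with sham, in which most members were high. After sham, candesartan minus vehicle was above 0 for 5 and below 0 for 4 of the 9, with a median of 0.01, and the groups overlapped for all 9, whereas candesartan lay wholly above vehicle for 21.2% of all probe sets and wholly below for 13.7%. By limma 0 members and 0% of the tested probe sets were called there, and 0 of the 7 tested members had an unadjusted p under 0.05, against 3.92% of tested probe sets.

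**Figure D3:**
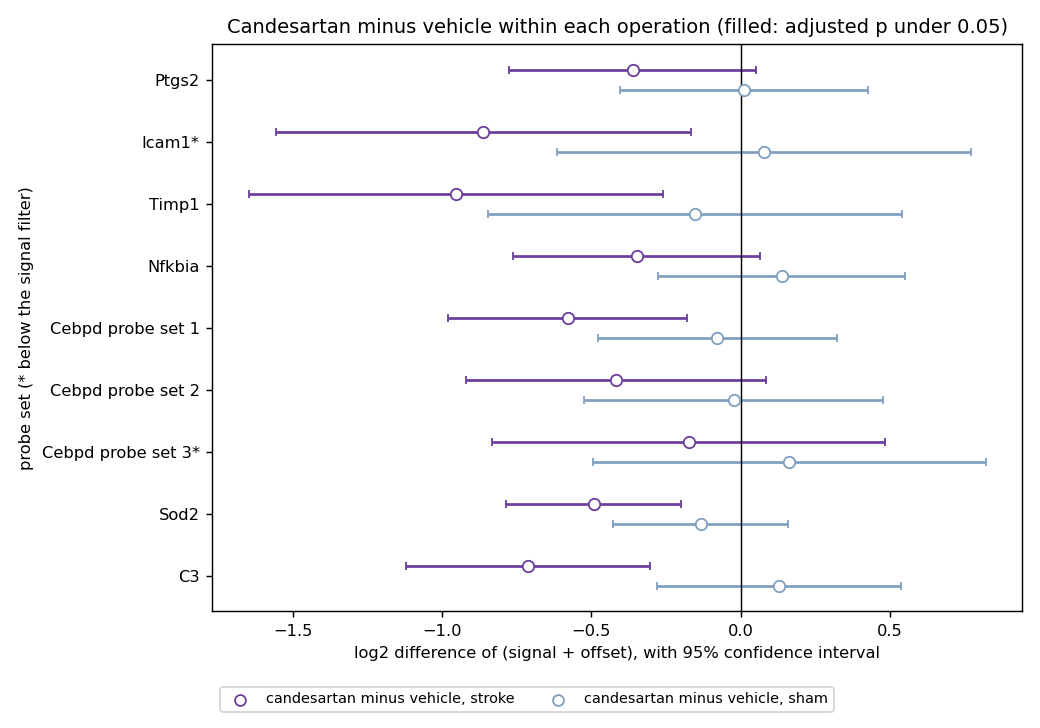
Difference between candesartan and vehicle (log2 of signal + 372.4, x axis) for the 9 probe sets after stroke (purple) and after sham (light blue), with 95% confidence intervals; no point passed an adjusted p of 0.05. After stroke all 9 points lie below 0, from -0.95 for Timp1 to -0.17 for Cebpd probe set 3, and after sham the intervals of all 9 hold 0.

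The difference between the 2 stroke responses, candesartan minus vehicle, was below 0 for all 9 probe sets, with a median of -0.49, against 57.7% and -0.06 for all probe sets. It was called for 0 of the 7 tested members by limma, against 0.0194% of tested probe sets, and C3 alone had an unadjusted value under 0.05, as had 8.85% of tested probe sets. No member was therefore shown to respond differently to stroke under candesartan. The intervals were wide: for Icam1 the difference was -0.94 (95% interval -1.92 to 0.04) and for Sod2 -0.36 (95% interval -0.77 to 0.06). Single arrays moved them too, that of Icam1 to -1.36 without stroke candesartan 2 and -0.52 without stroke candesartan 1, and that of Sod2 to -0.53 without sham candesartan 1 and -0.19 without sham candesartan 2.

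**Figure D4:**
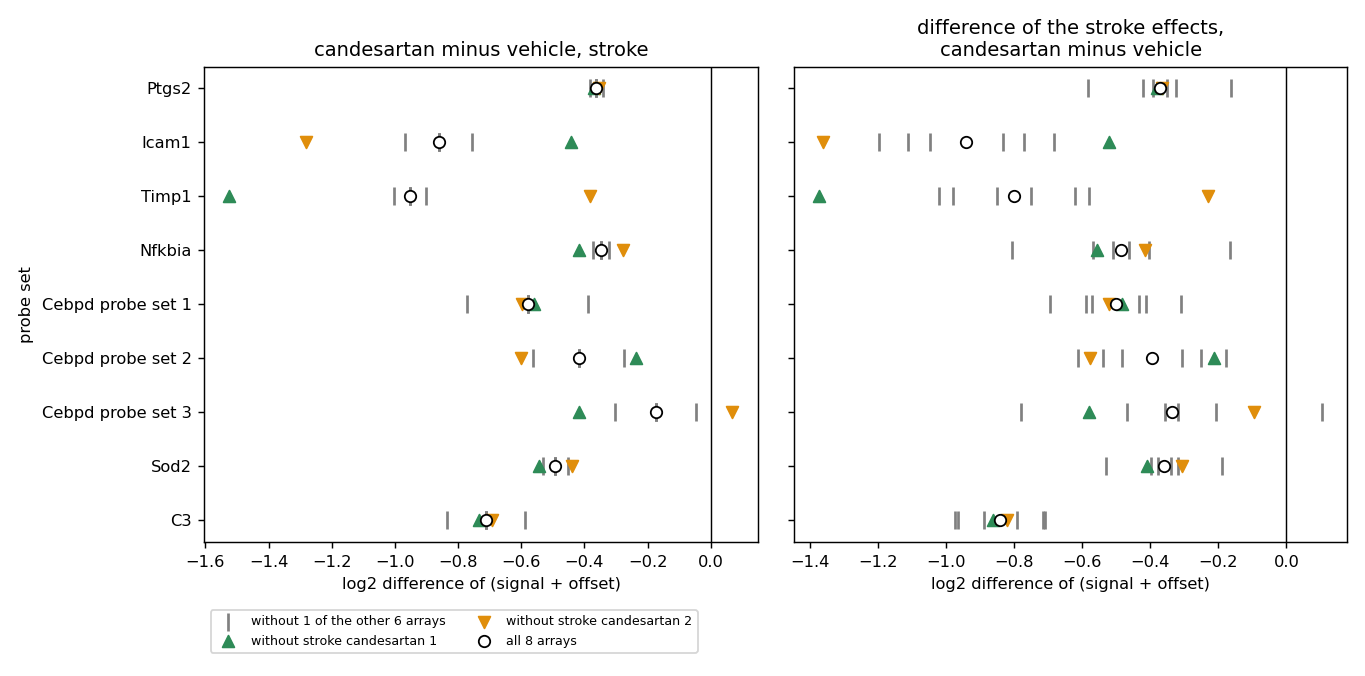
Candesartan minus vehicle after stroke (left) and the difference between the stroke responses (right), as log2 differences of signal + 372.4, with all 8 arrays (open circles) and with each array left out (triangles for the stroke candesartan arrays, grey ticks for the other 6). C3, Sod2, Ptgs2 and Cebpd probe set 1 keep nearly the same value in the left panel without either stroke candesartan array, whereas Timp1 moves from -1.52 to -0.38 and Icam1 from -0.44 to -1.28.

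The members did not form a single pattern over the arrays. Taking the brightest tested probe set of each gene, Ptgs2 had a Pearson correlation over the 8 arrays of 0.560 with Cebpd, 0.517 with Timp1, 0.413 with Sod2, 0.0691 with C3 and -0.51 with Nfkbia. C3 was closest to Cebpd (0.781). The named genes nearest to C3 were Fam107b (0.963), Wdr24 and Sstr2, those nearest to Sod2 were Sf3b5 (0.970), S100a10 and Map4k3, those nearest to Timp1 were Cyfip2 (0.970), Idi1 and Ppp1r2, those nearest to Cebpd were Tom1l2 (0.979), Srsf9 and Pnpla7, and those nearest to Nfkbia were Ypel4 (0.991), Folh1 and Llgl1. They are the highest correlations among all tested probe sets with a symbol, over 8 points, and are given as a description.

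The wider pathways were followed through 7 lists of 160 genes, of which 72 passed the filter. By limma with all arrays, 0 of their 87 tested probe sets were called in any of the 6 comparisons. At an unadjusted p under 0.05 they held 6 of the 72 genes for stroke with vehicle (7.06% of all tested probe sets), 11 for stroke with candesartan (12.4%) and 13 for stroke over both (9.54%). They held 17 for candesartan after stroke (13.1%), 2 for candesartan after sham (3.92%) and 7 for the difference between the responses (8.85%). Over both pretreatments 28 of the 72 genes were above 0, against 47.9% of all tested probe sets. Some list genes passed the threshold when a stroke candesartan array was left out, Adamts1 over both pretreatments without either of them. Such a fit leaves a single pool in that group, so only the sizes of its differences are given below.

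Among 14 measured genes of NF-kB and receptor signalling, 10 were above 0 after stroke with vehicle, with a median of 0.06, and 6 with candesartan, with a median of -0.03. Of all tested probe sets 52.5% and 44.7% were above 0, with medians of 0.01 and -0.03. Ier3, an early response gene and NF-kB target, read 725.8 and 1063.8 in sham vehicle, 2537.5 and 1827.7 in stroke vehicle, 1025.8 and 1049.8 in sham candesartan, and 1276.7 and 1138.7 in stroke candesartan. All 4 stroke arrays of Ier3 lay above all 4 sham arrays, against 2.29% of all probe sets. Ier3 was named for its small p in that same comparison, so the separation is no separate support. The difference between stroke and sham was 1.01 ± 0.19 with vehicle (adjusted p = 0.0835 by limma) and 0.16 with candesartan (adjusted p = 0.76), the latter 0.23 without stroke candesartan 2. Chuk, a kinase that marks the NF-kB inhibitor for breakdown, had a difference of 0.44 with vehicle (adjusted p = 0.472) and 0.15 with candesartan. Nfkb1, a subunit of NF-kB, had 0.47 (adjusted p = 0.608) and 0.17.

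Of the genes in the prostanoid list other than Ptgs2, 8 passed the filter. The smallest p of the list over both pretreatments belonged to Alox15, a lipoxygenase gene and not one of prostanoid synthesis, at -0.27, the thromboxane synthase gene Tbxas1 at -0.23 and the prostaglandin D synthase gene Ptgds at -0.25 (adjusted p between 0.619 and 0.66 by limma). Of the other adhesion molecules 6 passed, led by Vcam1 at -0.18, Mcam at 0.19 and Alcam at -0.09 (adjusted p between 0.59 and 0.746). For Vcam1, a partner of Icam1 in leukocyte adhesion, the stroke vehicle pools read 2884.4 and 2357.6, below the 2956.9 and 2960.9 of sham vehicle.

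Matrix proteases and inhibitors, the family around Timp1, were measured in 9 genes, of which 2 were above 0 over both pretreatments. Adamts1, a secreted matrix protease, read 1088.8 and 669.9 in sham vehicle, 2076.6 and 1892.6 in stroke vehicle, 820.8 and 842.3 in sham candesartan, and 1525.7 and 1116.7 in stroke candesartan. Every stroke array of Adamts1 lay above every sham array, against 2.29% of all probe sets, but Adamts1 too was named for its small p in that comparison. Its difference over both pretreatments was 0.71 ± 0.14 (adjusted p = 0.0751 by limma). It was 0.62 without stroke candesartan 1 and 0.79 without stroke candesartan 2. The differences of Mmp14 and Serpine2 were -0.36 and -0.29 (adjusted p = 0.369 and 0.456 by limma). That of Serpine2 was -0.42 without stroke candesartan 1 and -0.16 without stroke candesartan 2.

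In the C/EBP, IL-6 and acute phase list of 10 measured genes, the smallest p over both pretreatments belonged to A2m, a protease inhibitor of plasma, at -0.45 (adjusted p = 0.383 by limma), Jak2, a kinase of cytokine receptors, at 0.31, and Stat3, the transcription factor it activates, at 0.27. For A2m, candesartan minus vehicle after stroke was -0.64 (adjusted p = 0.281 by limma). It was -0.88 without stroke candesartan 1 and -0.40 without stroke candesartan 2. Stat3 read 2491.5 and 2544.5 in sham vehicle and 3320.3 and 3299.4 in stroke vehicle, a difference of 0.35 (adjusted p = 0.732). Among 18 antioxidant genes, the family around Sod2, Hmox1, the stress-induced heme oxygenase, read 785.0 and 986.8 in sham vehicle, 1946.6 and 2078.1 in stroke vehicle, 983.8 and 1061.3 in sham candesartan, and 796.8 and 1240.7 in stroke candesartan. The stroke vehicle pools of Hmox1 stood above the other 6 arrays. Hmox1 too was named for its small p for stroke over both pretreatments, which these pools enter, so the separation is no separate support. Its difference between stroke and sham was 0.93 ± 0.19 with vehicle (adjusted p = 0.117) and -0.02 with candesartan (adjusted p = 0.974), and candesartan minus vehicle after stroke was -0.80 (adjusted p = 0.222). Without stroke candesartan 2 the last 2 were -0.25 and -1.03, and without stroke candesartan 1 they were 0.21 and -0.56. Over both pretreatments the difference of Hmox1 was 0.57 without stroke candesartan 1 and 0.34 without stroke candesartan 2. Srxn1 and Txn1 had differences of 0.21 and 0.19 over both pretreatments (adjusted p = 0.491 and 0.562).

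Complement genes other than C3 were measured in 7 genes, of which 1 was above 0 after stroke with vehicle and 1 with candesartan. C1qa, a subunit of the first complement component, had a difference of -0.10 with vehicle (adjusted p = 0.956 by limma) and -0.46 with candesartan (adjusted p = 0.325). The latter was -0.67 without stroke candesartan 1 and -0.26 without stroke candesartan 2, so its size rested on which pool was kept. Masp1 had -0.01 and -0.21, and C1qc -0.16 and -0.14. After stroke, candesartan minus vehicle was -0.31 for C1qa, -0.35 for Masp1 and 0.09 for C1qc, with adjusted p between 0.3 and 0.872.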

How the data were processed

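Total RNA of 8 pools of right-hemisphere tissue was measured on 1 Affymetrix array each, 2 arrays in each of 4 groups, grouped by the source label of each sample. The authors deposited 1 table of linear intensity values, 1 signal for each probe set and array. The Affymetrix software GCOS appears in the submitters' processing notes; neither version nor settings are given in the sources used here. Trimmed means differed between arrays by at most 0.000426%, and no further scaling was applied. The 57 control probe sets were left out. Probe sets were named from the platform annotation: 12783 had 1 symbol, 312 several and 2771 none, and 12748 of the first matched RefSeq (GRCr8), with 0 symbols changed.

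All 4 groups were fitted in 1 model of group means (limma 3.58.1 in R 4.3.3; 4 residual degrees of freedom, eBayes variances moderated along the mean signal), with Benjamini-Hochberg adjustment within each of 6 comparisons. An exact permutation test of 2 arrays against 2 cannot give a p below 0.333, and limma's p-values rest on a spread pooled over probe sets and groups. The median difference between pools was 0.224 (log2) in stroke candesartan and 0.125 to 0.154 elsewhere, so p-values of comparisons with that group may be too small. The procedure was tested on simulated data in which each probe set had the same spread in all groups. For stroke with vehicle it called 28.4% of 1.5-fold, 68.7% of 2-fold and 98.5% of 4-fold changes, with 5 false calls. Smaller changes were thus often missed, and the wider spread of stroke candesartan was not simulated. Pools of the same number did not deviate together (correlations of pool differences between -0.0948 and 0.138), so the number was not taken as a pairing.

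Members, lists and tests were chosen with earlier results of these data known. All member probe sets were named, and from each pathway list every called probe set and the 3 genes with the smallest p for stroke over both pretreatments. For each tested member the 3 genes of highest correlation were named. The alternatives were quantile and cyclic loess normalization, a lower offset, no filter, fitting only the groups compared, a replicate block, leaving out each array and, added after the data were seen, percentiles with controls counted.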

Additional observations from a re-analysis of the deposited data

Results flagged for a closer look

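C3 was the one member whose stroke pools lay on opposite sides of sham under the 2 pretreatments: both above with vehicle (1150.8 and 1437.2 against 796.8 and 1031.3) and both below with candesartan (655.9 and 626.9 against 1075.3 and 982.3). The test of this difference, the stroke response with candesartan minus that with vehicle, gave -0.84 (log2; adjusted p = 0.469 by limma) and did not pass. In single comparisons both stroke pools lay above both sham pools for 23.8% of all probe sets with vehicle and below them for 22.0% with candesartan. The share of probe sets with both patterns together was not counted, so how unusual that of C3 is cannot be said. Groups of 2 arrays are too small for a single array to be singled out within a group.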

How the results depend on the processing

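The only member call that held under every alternative was that of Ptgs2 for stroke over both pretreatments. The count of called probe sets, with all arrays 27 for stroke with vehicle, was 12 without the filter, 93 in a fit of the compared groups alone and 7 to 39 without single arrays. For stroke with candesartan it was 25, 16 without the filter, 11 with only the groups compared and 5 to 837 without single arrays, and over both pretreatments 43 and 23 to 389. For candesartan after stroke it was 7, 2 with the lower offset, 0 without the filter, 4 with the replicate block, 0 with only the groups compared and 0 to 987 without single arrays. For the difference between the responses it was 2, 0 with the lower offset, 0 without the filter, 0 with the replicate block and 0 to 295 without single arrays. The number of members called with vehicle, 1 with all arrays, was 2 with only the groups compared (Timp1 added) and 0 to 1 without single arrays. With candesartan it was 1, and 0 with the lower offset, without the filter, with the replicate block (Ptgs2 1.11, adjusted p = 0.0756) and with only the groups compared, and 0 to 1 without single arrays. For candesartan after stroke and for the difference between the responses it was 0, and 0 to 1 without single arrays (Timp1, without stroke candesartan 1). The cause of these shifts was not tested, and where a single array is left of a group it is assumed to vary like the others.

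Signs turned only in values that were not called. Under quantile and cyclic loess normalization Cebpd probe set 1 for stroke with candesartan was 0.065 and 0.068, and Ptgs2 for candesartan after sham was -0.058 and -0.048. Cebpd probe set 3 over both pretreatments was 0.012 with quantile normalization and 0.0035 with the lower offset. Without single arrays the ranges that crossed 0 were, for stroke with vehicle, -0.30 to 0.59 for Cebpd probe set 3 and -0.42 to 0.225 for Nfkbia. For stroke with candesartan they were -0.092 to 0.084 for Cebpd probe set 1, -0.50 to 0.34 for Icam1, -0.53 to 0.62 for Timp1, -0.27 to 0.069 for Sod2 and -0.44 to 0.049 for Cebpd probe set 3. Over both pretreatments they were -0.25 to 0.20 for Cebpd probe set 3, -0.11 to 0.020 for C3 and -0.0065 to 0.16 for Sod2. For candesartan after stroke only Cebpd probe set 3 crossed 0 (-0.42 to 0.069), as for the difference between the responses (-0.78 to 0.11). For candesartan after sham all 9 did: Timp1 from -0.37 to 0.067, Nfkbia -0.18 to 0.46, C3 -0.0034 to 0.26, Ptgs2 -0.20 to 0.22, Icam1 -0.18 to 0.34, Sod2 -0.30 to 0.036, and the 3 Cebpd probe sets -0.17 to 0.0094, -0.24 to 0.19 and -0.28 to 0.61. Signals near background, as for Icam1 and Cebpd probe set 3, limit what can be read from those members.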
